A study of Mus musculus with 14 samples.

Results

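Trimethylation of lysine 4 of histone H3 (H3K4me3) formed 1069 peaks at promoters of protein-coding genes whose DNA is poor in CpG dinucleotides. A peak of the deposited list belonged to this set when its centre lay within 1 kb of a transcription start site (TSS) of a protein-coding transcript, and when the 1000 bp around the nearest such TSS had an observed to expected CpG ratio below 0.4. The ratio divides the number of CpGs by the number that the C and G content of the same sequence would give by chance. The list held 25431 peaks, of which 15913 were promoter peaks of coding genes. CpG-poor promoter peaks made up 6.72% of these (95% CI 6.34 to 7.12), CpG-rich promoter peaks with a ratio of 0.6 or more made up 77.1% (12261 peaks), and the intermediate class made up 16.2% (2583 peaks). The CpG-poor peaks belonged to 977 TSSs of 889 genes.

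The cells were immortalised mouse embryo fibroblasts (iMEFs) that carry floxed alleles of Ash2l and a Cre-ER recombinase switched on by hydroxytamoxifen. The labels describe a lentiviral FKBP-tagged human ASH2L, and per the study's methods the endogenous alleles had been deleted and the ChIP experiments used 1 clone, NG3. All groups share this genotype. H3K4me3 was mapped by chromatin immunoprecipitation and sequencing (ChIP-seq) in untreated cells and in cells kept with dTAG, the compound that triggers degradation of the fusion protein, for 30 min, 2 h, 4 h, 8 h and 16 h, with 2 replicates per group, and input DNA came from untreated cells and from cells after 16 h of dTAG. The authors pooled the 12 H3K4me3 libraries into 1 list of positions. It has 0 columns of values per sample, so the depth of each library is unknown, the values below have no replicate error, and a peak may come from any of the time points. All intervals are 95% intervals that cover counting error only, and no test was made over regions, since regions are not replicates.

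ASH2L is a core subunit of the KMT2 complexes that methylate H3K4. Several of these complexes reach DNA through CXXC zinc finger domains, which bind unmethylated CpGs. Most promoters of genes that are used in all tissues lie in CpG islands, where CpGs are kept unmethylated and H3K4me3 is usual. Promoters that lack an island belong mostly to genes that are active in few cell types, and many of them carry a TATA box, the site that positions the transcription machinery.

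To show what these promoters look like, the 150 bases before the TSS are given for 5 genes with a CpG-poor promoter peak and, for contrast, for Psmb5, a proteasome gene with a CpG-rich promoter and a peak. Letters were read from GRCm38.p6 (RefSeq), the build of the peak list, on the strand of the gene and from 5′ to 3′. Every CG and every TATAAA is in capitals. No annotated exon overlaps these bases. The genes were chosen from those named below after their values were seen.
S100a4 (chr3:90603621-90603770, plus strand): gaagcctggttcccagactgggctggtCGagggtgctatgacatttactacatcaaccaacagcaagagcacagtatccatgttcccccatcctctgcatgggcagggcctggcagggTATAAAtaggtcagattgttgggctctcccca
Ccl7 (chr11:82045562-82045711, plus strand): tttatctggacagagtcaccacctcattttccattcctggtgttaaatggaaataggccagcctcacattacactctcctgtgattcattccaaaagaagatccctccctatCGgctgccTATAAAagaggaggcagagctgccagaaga
Acta2 (chr19:34254231-34254380, minus strand): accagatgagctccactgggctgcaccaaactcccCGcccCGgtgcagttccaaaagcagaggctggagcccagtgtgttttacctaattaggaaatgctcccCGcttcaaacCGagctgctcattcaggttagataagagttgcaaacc
Col3a1 (chr1:45311388-45311537, plus strand): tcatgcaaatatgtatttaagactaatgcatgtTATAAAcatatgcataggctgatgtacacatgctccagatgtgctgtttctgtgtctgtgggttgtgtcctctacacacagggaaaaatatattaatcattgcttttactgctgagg
Gbp2 (chr3:142620452-142620601, plus strand): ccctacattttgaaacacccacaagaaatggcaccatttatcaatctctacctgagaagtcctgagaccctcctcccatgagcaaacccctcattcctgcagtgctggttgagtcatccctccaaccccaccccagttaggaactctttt
Psmb5 (chr14:54618023-54618172, minus strand): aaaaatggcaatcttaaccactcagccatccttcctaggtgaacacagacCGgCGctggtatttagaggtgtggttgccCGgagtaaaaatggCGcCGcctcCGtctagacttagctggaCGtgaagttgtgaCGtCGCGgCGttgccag

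In these bases, S100a4 and Ccl7 hold 1 CpG each, Acta2 holds 4, Col3a1 and Gbp2 hold 0, and Psmb5 holds 11. TATAAA starts 32 bases before the TSS of S100a4 and 30 bases before that of Ccl7. In Col3a1 the same letters start 117 bases before the TSS. Over the whole 1000 bp the ratio was 0.180 at S100a4, 0.179 at Col3a1, 0.111 at Gbp2 and 0.790 at Psmb5.

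The question of the comparison was how often H3K4me3 is found where CpGs are sparse, and which genes these are. Across the 54329 coding TSSs, 53.1% had a peak centre within 1 kb. This counts every TSS near a peak, also where another TSS is nearer, while the 977 CpG-poor TSSs above were those nearest to one. The share was 9.03% at CpG-poor TSSs (2067 of 22892, 95% CI 8.66 to 9.41), 63.3% at intermediate TSSs and 92.2% at CpG-rich TSSs (22035 of 23903). It rose in every bin of the ratio, from 1.62% below 0.1 to 3.81%, 8.85% and 23.9% in the next 3 bins, and to 96.4% at a ratio of 1 or more. The share thus varied widely within the CpG-poor class. GENCODE marks some transcripts as having an incomplete start, and without these 10.0% of CpG-poor TSSs had a peak.

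**Figure D1:**
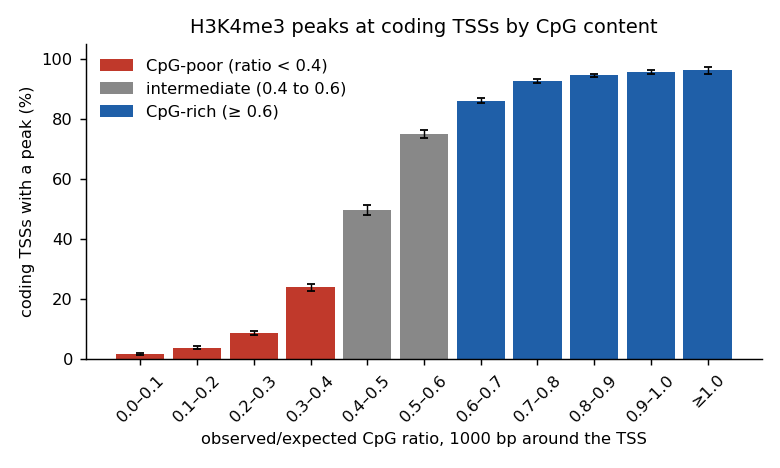
Share of coding TSSs with an H3K4me3 peak centre within 1 kb (y axis, percent) by the observed to expected CpG ratio of the 1000 bp around the TSS (x axis, bins of 0.1), with bars coloured by class and error bars showing 95% Wilson intervals. The share rises in every bin, from 1.62% to 96.4%.

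Counted by gene, 57.6% of the 21853 coding genes had a peak. Of the 7684 genes whose annotated coding TSSs are all CpG-poor, 513 had one (6.68%, 95% CI 6.14 to 7.26), against 6096 of the 6684 genes whose TSSs are all CpG-rich (91.2%). The 889 genes with a CpG-poor promoter peak fall into 3 kinds. For 492 of them (55.3%) no other class of start is annotated. A further 298 (33.5%) also have a CpG-rich start. At 288 of these a peak centre lay within 1 kb of a CpG-rich start, but it could be that of the CpG-poor promoter peak itself. Both kinds of promoter peak were assigned to 240 genes. The remaining 99 also have an intermediate start. One peak was assigned to 735 of the genes, 2 peaks to 135, 3 to 13, 4 to 5, and 5 peaks to 1.

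The sequence under the peaks followed the TSS in most cases. Bases inside a CpG-poor promoter peak had a median ratio of 0.327, against 0.704 for CpG-rich promoter peaks, and 764 of the 1069 (71.5%) had a ratio below 0.4 themselves. A ratio of 0.6 or more inside was found for 56 peaks (5.24%), and 40 of these lay beyond 5 kb of any CpG-rich coding TSS. Median GC content around the TSS was 50.9% against 61.9%, and 1000 bp held a median of 19 CpGs against 74. A CpG-rich coding TSS lay within 1 kb of the centre of 85 peaks, at 1 to 5 kb for 134, and beyond 5 kb for 850 (79.5%). Exons made up a median of 29.7% of a peak's bases (quartiles 10.8 and 57.1). At the limit of the class, the peaks of Rhoj, Tap2 and Zfp54 were just inside, with ratios of 0.39996, 0.39980 and 0.39918 and widths of 1242, 641 and 828 bp. Picalm, Gm45713 and Cit were just outside, with ratios of 0.40004, 0.40036 and 0.40039 and widths of 976, 515 and 944 bp.

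CpG-poor promoter peaks were narrow. Their median width was 585 bp (95% CI 537 to 627, quartiles 311 and 1047), against 861 bp in the intermediate class and 1055 bp (95% CI 1040 to 1071, quartiles 621 and 1513) at CpG-rich promoters. Peaks under 500 bp made up 44.2% against 19.2%, and peaks of at least 1000 bp 27.3% against 53.5%. The shortest width in the list, 200 bp, was found for 34 CpG-poor (3.18%) and 94 CpG-rich promoter peaks (0.767%). In the 240 genes with both kinds of peak, the widest CpG-rich peak exceeded the widest CpG-poor one in 181 (75.4%, 95% CI 69.6 to 80.4), with medians of 1350 and 588 bp. The difference in width was therefore present within genes as well as between them.

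**Figure D2:**
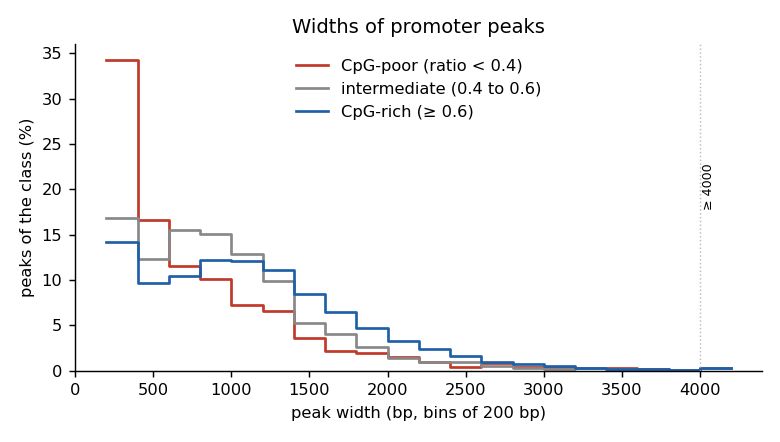
Widths of promoter peaks in bins of 200 bp (x axis, with all peaks of 4000 bp or more in the last bin) as a percentage of the peaks of each class (y axis). The CpG-poor class has the most peaks in the first bin, with a median of 585 bp, while CpG-rich peaks have a second maximum near 1000 bp and a median of 1055 bp.

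The position of the peaks relative to the TSS also differed. A listed peak covered the base 100 bp downstream of the TSS at 74.8% of the 977 CpG-poor TSSs and at 96.8% of the 11056 CpG-rich ones. At 500 bp upstream the shares were 32.1% and 57.5%, and at 1000 bp downstream 26.9% and 50.1%. CpG-rich TSSs showed a dip just before the TSS, from 74.2% at 300 bp upstream to 65.6% at 100 bp upstream and up again to 87.9% at the TSS. CpG-poor TSSs showed no such dip, with 45.1%, 54.7% and 70.4% at the same places. At 3000 bp upstream the order was the other way, with 6.04% of CpG-poor and 2.10% of CpG-rich TSSs covered. The peak itself contained the TSS in 61.6% of the CpG-poor promoter peaks (95% CI 58.6 to 64.4) and in 71.7% of the CpG-rich ones (95% CI 70.9 to 72.4).

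**Figure D3:**
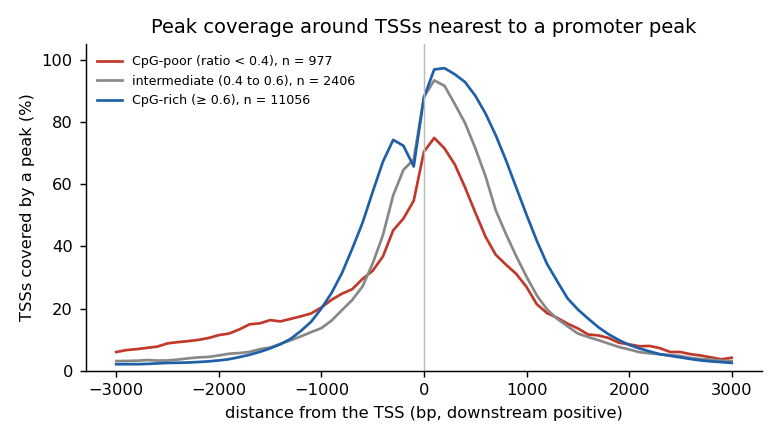
Share of TSSs covered by a listed H3K4me3 peak (y axis, percent) by distance from the TSS (x axis, bp, downstream positive), for the TSSs nearest to a promoter peak in each class. The CpG-rich line dips to 65.6% at 100 bp upstream between an upstream and a downstream maximum, and the CpG-poor line has a single maximum of 74.8% at 100 bp downstream.

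Some CpG-poor TSSs carried more than 1 peak. At 86 of the 977 (8.80%, 95% CI 7.18 to 10.7) 2 or more peaks were assigned to the same TSS, against 1164 of 11056 CpG-rich TSSs (10.5%). The centres lay on both sides of the TSS in 49 of the 86 (57.0%, 95% CI 46.4 to 66.9) and in 887 of the 1164 (76.2%, 95% CI 73.7 to 78.6). Lgals1, which encodes the secreted sugar-binding protein galectin-1, had a peak of 606 bp upstream and one of 1488 bp downstream. Col1a2 likewise had a peak of 408 bp, whose centre lay upstream, and one of 1018 bp downstream.

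The widest CpG-poor promoter peaks lay mostly in genes that also have a CpG-rich start. Of the 10 widest, 8 did. The widest, of 5622 bp, was at Ppp1r18 (chr17:35865180-35870801). The nearest CpG-rich coding TSS lay 1.93 kb from the centre of this peak and so inside it. Next came Rara, the retinoic acid receptor alpha (5312 bp, chr11:98937625-98942936), Lzts2 (4539 bp), Phf21a, which encodes a reader of unmethylated H3K4 (3864 bp), Nab2 (3710 bp), and, further down, Amotl2 (3476 bp) and Tent4a (3351 bp). Dlg4 (3474 bp) also has an intermediate start. Rin1 (3466 bp, chr19:5050447-5053912) is the only 1 of the 10 whose annotated starts are all CpG-poor, and GENCODE marks the start nearest to its peak as incomplete. Among all members, the 570 peaks of genes with CpG-poor starts alone had a median width of 612 bp (95% CI 566 to 651), and the 377 of genes that also have a CpG-rich start had one of 495 bp (95% CI 433 to 582).

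Genes of the extracellular matrix and the cytoskeleton were examined by lists. These hold chosen genes, picked with earlier results of these data known, and do not stand for whole families. Here and in the lists below, few genes have CpG-poor starts alone, and no interval was computed for their shares. None of these shares is therefore read as above the share of all such genes. Collagen chains form the fibrils and networks of the matrix. Of the 19 collagen genes listed, 7 have starts that are all CpG-poor, and 6 of these had a peak, against 6.68% of all such genes. Their widest peaks were 335 bp at Col1a1, 375 bp at Col7a1, 382 bp at Col3a1 (chr1:45311497-45311878), 1004 bp at Col5a2, 1018 bp at Col1a2 and 1178 bp at Col6a1. Both Col1a1 peaks, of 335 and 270 bp, had their centres upstream of the TSS. Col6a3, the other gene, had peak bases within 1 kb of a start but no peak centre there.

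Of the contractile and actin-binding protein genes with CpG-poor starts alone, 5 of 7 had a peak (71.4%), against 6.68% of all such genes. The peaks were widest at Tagln, which encodes transgelin (2569 bp, chr9:45933559-45936127), and at Lmod1, the actin nucleator leiomodin-1 (2007 bp). Myl9, a myosin light chain, had 1296 bp, Cnn1, calponin-1, 1283 bp and Acta2, smooth muscle actin, 1252 bp. All 5 carried a second, narrower peak of 211 to 603 bp. Actg2 and Myh11, also genes of smooth muscle, had no peak base within 1 kb. In the same list Cald1, the actin regulator caldesmon, had CpG-poor promoter peaks of 2312 and 1667 bp and also has an intermediate start, while Tln1 (1337 bp) and Actg1 (713 bp) also have a CpG-rich start. Taking the widest CpG-poor promoter peak of each gene, the median over the 8 genes of the list was 1317 bp, against 677 bp (95% CI 637 to 746) over all 889 genes with such a peak.

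While 6.68% of all genes with CpG-poor starts alone had a peak, 5 of 15 (33.3%) did among matrix proteins and crosslinking enzymes. These were Bgn, a small proteoglycan (1856 bp), Thbs2, thrombospondin-2 (1276 bp), Spp1, osteopontin (484 and 308 bp), Postn, periostin (419 bp), and Sparc, a collagen-binding glycoprotein (275 bp). The 10 without any peak base nearby included Eln, Lum and Dcn, the genes of elastin, lumican and decorin. Of proteases and their inhibitors, 7 of 16 such genes had a peak (43.8%), beside the same 6.68%. Serpinf1, a secreted serpin, had 2701 bp and Adamts12, a metalloprotease, 2192 bp, followed by Plat, tissue plasminogen activator (985 bp), and Timp1, an inhibitor of metalloproteases (536 and 514 bp). Mmp19, another metalloprotease, had 285 bp. At Adamts4 the peak nearby was nearest to a start of another gene. Mmp3, Mmp9 and Mmp13 had none. In the same list Timp3, which also has a CpG-rich start, had a CpG-poor promoter peak of 399 bp.

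S100, annexin and galectin genes encode calcium- and sugar-binding proteins, many of them abundant in fibroblasts. A peak was found at 6 of 15 with CpG-poor starts alone (40%), against 6.68% of all such genes. Anxa1 had 1725 bp (chr19:20389249-20390973) at a TSS with only 6 CpGs in 1000 bp. Lgals1 had 1488 bp, Anxa3 1353 bp and Anxa8 428 bp. S100a4 had 944 bp (chr3:90603622-90604565) at the start shown above and 828 bp at a second start, and S100a1 lay beside a peak that was nearest to another gene. The neighbouring S100a6, which also has an intermediate start, had 2821 bp. No peak base lay within 1 kb of S100a8, S100a9 or S100b, which are used in myeloid cells and in glia. The same was true of further S100 genes and a galectin gene with CpG-poor starts alone. Whether the absence follows cell type was not tested.

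Peaks at genes of secreted signals and defence were mostly narrow. The lists here are also small and no interval was computed for their shares, so none is read as above the share of all such genes. Of 17 chemokine genes with CpG-poor starts alone, 3 had a peak (17.6%), against 6.68% of all such genes. Ccl2 (212 bp) and Ccl7 (257 bp, chr11:82045745-82046001), neighbours that attract monocytes, were near the shortest width, and Cxcl5, a neutrophil chemokine, had 1339 bp. Cytokines and growth factors gave 2 of 13 (15.4%), Il15 with 1087 bp and Il11 with 477 bp, while Il1b, Il6 and Tnf had none. Interferon response and antigen presentation genes gave 4 of 12 (33.3%). These were the interferon regulatory factors Irf7 (781 bp) and Irf9 (319 bp), the guanylate-binding protein gene Gbp2 (596 bp, chr3:142620409-142621004) and the nuclease gene Isg20 (404 bp), and Gbp3, which also has an intermediate start, had 387 bp. Ifit1, Isg15 and Mx1 were without a peak base. Enzymes of detoxification gave 3 of 9 (33.3%), with Gstm2 (545 bp), Sod3 (428 bp) and Akr1b8 (359, 300 and 269 bp around 1 TSS).

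**Figure D4:**
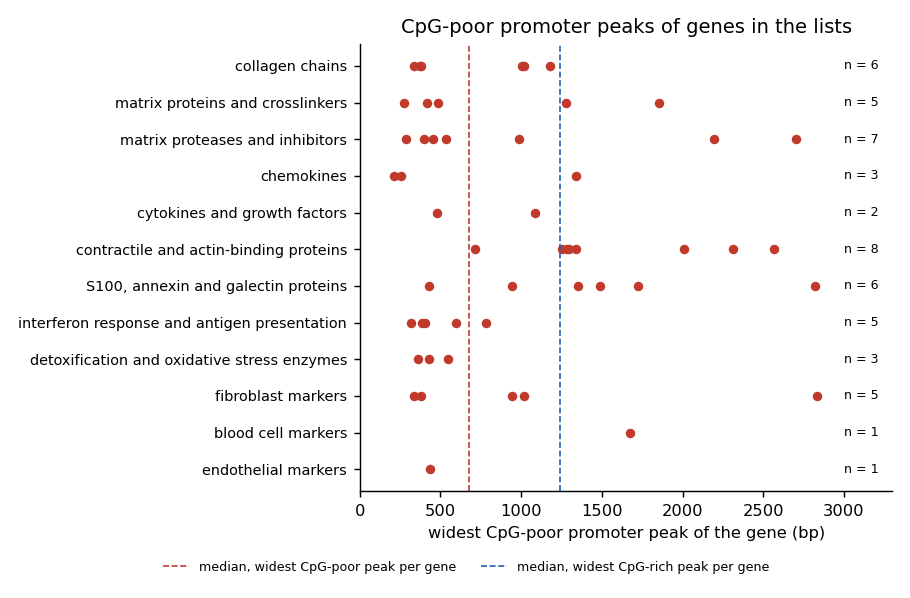
Width in bp of the widest CpG-poor promoter peak (x axis) of each gene that has one, by gene list (rows, 1 point per gene, with the number of genes at the right). Dashed lines mark the medians over all genes of the widest CpG-poor (677 bp) and the widest CpG-rich (1238 bp) promoter peak, and 7 of the 8 contractile genes lie above the second line, while every interferon response gene lies below it.

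The labelled cell type was checked with marker lists. Over every class of start, a peak centre was found near 12 of 16 fibroblast markers (95% CI 50.5 to 89.8%, against 57.6% of all genes), 5 of 16 epithelial, 4 of 12 endothelial, 3 of 11 adipocyte, 2 of 20 blood cell, 1 of 18 skeletal and cardiac muscle and 0 of 16 liver markers. The fibroblast interval includes the share of all genes. The fibroblast markers with a peak were, among others, Col1a1, Col1a2, Col3a1, S100a4 and Ddr2 (2830 bp) with CpG-poor promoter peaks, and Vim, Twist1, Twist2 and Pdgfra with others. Pdgfrb had peak bases only, and Dcn, Lum and Pdpn had none. Of markers whose starts are all CpG-poor, 4 of 6 fibroblast, 0 of 7 epithelial, 0 of 13 skeletal and cardiac muscle, 0 of 15 liver and 0 of 8 adipocyte genes had a peak. With 6.68% of all such genes carrying one, lists of this size without a peak are near the background. Blood cells gave 1 of 17, Cd14 (1676 bp), and endothelial cells 1 of 7, Tek (435 bp). Ptprc, the pan-leukocyte marker, and Pecam1 and Cdh5, which define endothelium, had none. Markers of other cell types with a CpG-rich start did carry peaks, among them Epcam, Cdh1, Kdr and Flt1, and all 31 proteasome genes, used in every cell and each with a CpG-rich start, had one.

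Short sequence motifs were counted around the TSSs nearest to a promoter peak. TATAAA starting 40 to 20 bases before the TSS on the strand of the gene was present at 12 of 977 CpG-poor TSSs (1.23%, 95% CI 0.704 to 2.13), in Ackr3, Muc1, S100a4, Irf7, Msmo1, Mmp19, Cpeb4, Ccl7, Smdt1, Cela1, Anxa1 and Tsc22d3. CpG-rich TSSs near a peak held it in 0.561% of cases, and all coding TSSs in 1.52%. CpG-poor TSSs without a peak held it in 2.84% (95% CI 2.63 to 3.08), above the interval of those near a peak. GGGCGG, the core of the binding site of SP1, was searched on both strands over the 250 bases before the TSS and the first 50 of the transcript. It was found at 26.4% of the CpG-poor TSSs near a peak (95% CI 23.7 to 29.3), at 9.02% of those without one (95% CI 8.64 to 9.42), at 74.7% of CpG-rich TSSs near a peak and at 43.1% of all. This motif contains a CpG, so its frequency is tied to the ratio that defines the classes. CCAAT was as frequent in each of these groups, at 37.4%, 36.9%, 35.7% and 35.9%. TGACTCA, the AP-1 site, was found at 6.35% (95% CI 4.98 to 8.05), 6.18%, 2.40% and 4.31%, and so differed between CpG-poor and CpG-rich TSSs but not, within these intervals, between CpG-poor TSSs with and without a peak. CCAAT and TGACTCA were searched in the same window and on both strands. None of the 4 motifs contains another, and a match is not a measured binding site.

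Putative enhancers were those the authors defined in control cells by H3K4me1, H3K27ac and accessible chromatin, leaving out 1 kb on either side of known TSSs. The list held 32965. An enhancer lay within 50 kb of the TSS of 69.8% of CpG-poor promoter peaks (95% CI 67.0 to 72.5) and of 69.9% of CpG-rich ones (95% CI 69.1 to 70.7), and the intervals overlapped. This did not hold for each kind of gene. The share was 62.3% (95% CI 58.2 to 66.2) for CpG-poor promoter peaks of genes with CpG-poor starts alone, 81.2% (95% CI 76.9 to 84.8) where the gene also has a CpG-rich start, and with 1 TSS per gene the shares were 61.7% and 69.6%. Closer to the TSS the classes differed. Within 10 kb the shares were 36.3% (388 peaks, 95% CI 33.5 to 39.2) and 24.4% (2987 peaks, 95% CI 23.6 to 25.1). The median distance to the nearest enhancer was 17.7 kb (95% CI 15.6 to 19.6) against 25.6 kb (95% CI 24.9 to 26.4), and the mean number within 50 kb was 2.33 against 1.86. At 100 kb the order turned, with 82.6% and 87.4%.

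Most of this proximity lay in genes with several classes of start. Within 10 kb, an enhancer was found for 46.9% of the CpG-poor promoter peaks in genes that also have a CpG-rich start (95% CI 42.0 to 52.0), and for 28.1% of those in genes with CpG-poor starts alone (95% CI 24.5 to 31.9). In the 240 genes with both kinds of peak, 39.5% of the CpG-rich promoter peaks themselves had an enhancer within 10 kb (95% CI 34.2 to 45.03), above the 24.4% of all CpG-rich peaks. An enhancer overlapped the peak in 12.997%, 3.33% and 6.80% of these groups, and in 2.29% of all CpG-rich promoter peaks. The authors kept enhancers outside windows around their own set of TSSs. That set can differ from the GENCODE M21 TSSs used here, and the part of this in the proximity was not tested. With enhancers beyond 1 kb of every GENCODE TSS the shares within 10 kb were 26.5% for CpG-poor promoter peaks and 18.7% for CpG-rich ones, and 20.9% (95% CI 17.7 to 24.4) in genes with CpG-poor starts alone.

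**Figure D5:**
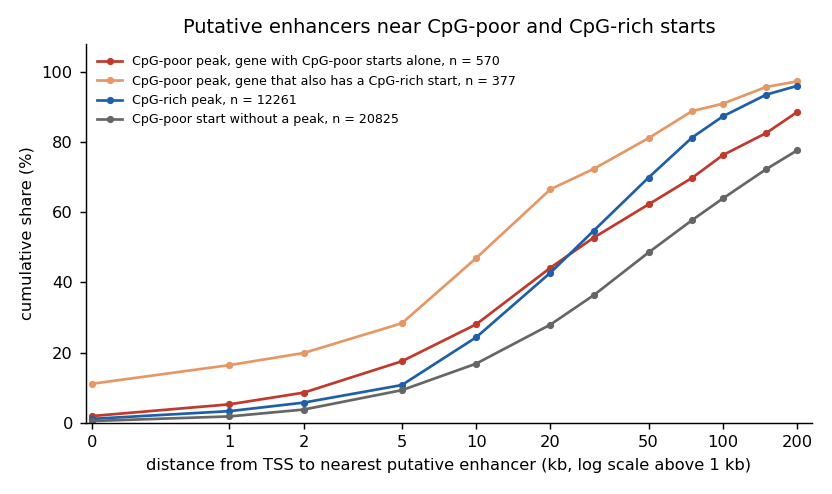
Cumulative share (y axis, percent) of starts with a putative enhancer within a given distance (x axis, kb, log scale above 1 kb), for CpG-poor promoter peaks of genes with CpG-poor starts alone and of genes that also have a CpG-rich start, for CpG-rich promoter peaks, and for CpG-poor TSSs without a peak. At 10 kb the lines stand at 28.1%, 46.9%, 24.4% and 16.9%.

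CpG-poor TSSs with a peak lay closer to enhancers than those without. Here a TSS had a peak when any peak centre lay within 1 kb, also where another TSS was nearer to it. Of the 2067 CpG-poor TSSs with a peak, 69.3% had an enhancer within 50 kb (95% CI 67.3 to 71.2), against 48.6% of the 20825 without a peak (95% CI 47.9 to 49.2). The median distances were 21.6 and 51.9 kb. The same contrast was seen at CpG-rich TSSs, with 69.7% and 38.5%. Pde4d, a cAMP phosphodiesterase gene that also has a CpG-rich start, had the most enhancers within 50 kb of a CpG-poor promoter peak, with 14, and 1 of them overlapped its peak of 1233 bp (chr13:109685185-109686417). It was followed by Gas2, an actin-binding protein gene with CpG-poor starts alone (12 enhancers, the nearest at 1.07 kb), Ttc23 (12), Mbnl1, a splicing regulator (11), and Akap13 (11). Of the matrix genes, Col1a2 had 10 enhancers within 50 kb, Spp1 9, Col5a2 and Sparc 8 each, and Col3a1 and Col7a1 1 each.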

How the data were processed

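Per the study's methods, the authors trimmed reads with Trim Galore, aligned them with BWA to mm10 (GRCm38.p6), filtered with SAMtools, merged replicates with Picard, called narrow H3K4me3 peaks with MACS, and deposited a union of peaks over all samples and a list of putative enhancers. Versions are not given in the sources used here. Both lists hold positions without a score. Peak starts were taken to count from 0 and enhancer starts from 1, and 74 peaks outside chromosomes 1 to 19, X and Y were left out. TSSs were the 54329 distinct starts of protein-coding transcripts of coding genes in GENCODE M21. Distances to enhancers run from the TSS to the nearest base. Shares carry Wilson intervals and medians order-statistic intervals. Functions were tested on simulated data, where 0 of 5200 queries differed from a direct count. Genes named were the 10 widest peaks, the 5 with the most enhancers, members of 17 lists with a CpG-poor promoter peak or up to 3 without any per list, and 3 peaks on either side of the ratio limit. Some genes that this rule names are not reported here. The members, lists and rules were chosen with earlier results of these data known. Other TSS sets, ratios, peak rules and distances were tried. Computations ran in Python 3.11.15 with pandas 2.3.3, SciPy 1.17.1 and NumPy 2.4.6, and plots in Matplotlib 3.10.9.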

Additional observations from a re-analysis of the deposited data

How the results depend on the processing

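No paired analysis was possible because neither list has a value for any single library, even though replicates 1 and 2 are numbered alike in each group. For the same reason no replicate could be left out. Of 61 alternative values, 39 stayed within the interval (for the count, within 1.5 times) of the value reported, and 22 moved beyond it. Only the difference in width had an interval that excluded 0 as reported, and it kept its sign in every setting. Counts and shares cannot change sign. The cause of these moves was not tested beyond what each setting changes by itself. The 1069 CpG-poor promoter peaks became 660 with the most upstream TSS of each gene, 505 with a ratio below 0.3 and 596 with peaks of at least 500 bp. The 9.03% of CpG-poor TSSs with a peak became 7.33% with TSSs of all transcripts of coding genes, 7.22% with 1 TSS per gene, 5.32% below a ratio of 0.3, 9.49% with a ratio over 500 bp, 6.34% with peaks of at least 500 bp, 7.71% with peaks merged within 1 kb, 11.3% with any overlap of the peak in place of its centre, and 10.0% without incomplete starts. The difference in median width, CpG-poor minus CpG-rich, was -470 bp. It was -423 bp with 1 TSS per gene, -600.0 bp below a ratio of 0.3, -230.5 bp among peaks of at least 500 bp and -770.0 bp with merged peaks, so CpG-poor promoter peaks were narrower in every setting. The difference in the share with an enhancer within 50 kb was -0.14 percentage points, with an interval from -3.08 to 2.66 that includes 0, and so had no direction to keep. It was -7.92 points with 1 TSS per gene, -3.11 with merged peaks and -7.65 for genes with CpG-poor starts alone. At other distances the sign turned, with 11.9 points at 10 kb (95% CI 9.003 to 14.96) and -4.77 at 100 kb (95% CI -7.23 to -2.54), both without 0 in the interval. At 10 kb it was 7.79 points with enhancers beyond 1 kb of every annotated TSS, and 3.71 points for genes with CpG-poor starts alone. The share of TATAAA ranged from 0.935% to 1.74% and stayed within its interval in all 12 settings. Settings without incomplete starts, with CpG-poor starts alone and with enhancers away from TSSs were chosen after seeing the data. A TSS without a peak may carry H3K4me3 below the reach of the peak caller, and since more CpG-poor than CpG-rich promoter peaks had the shortest width (3.18% and 0.767%), such a limit may act unequally on the classes, which was not tested.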

Other observations

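Genes with CpG-poor promoter peaks were also found near each other. Other genes can lie between them. The same linking was not made for other classes of peak or for genes without one, so the runs have no background to be read against. The groups in this section were chosen after the values were seen. Linking genes whose CpG-poor promoter peaks lay at most 50 kb apart gave 10 runs of 3 or more genes, and 3 of these lay on chromosome 13 and held zinc finger genes, among them Zfp738, Zfp65 and Zfp85 in 1 run, Zfp759 and Zfp455 in another, and Zfp953, Zfp456 and Zfp429 in the third. A run of 4 genes on chromosome 7 held Rras, Prrg2, Fcgrt and Rpl13a. Chromosome 14 had a run of Pck2, Psme1 and Irf9.

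Of all genes with CpG-poor starts alone, 6.68% had a peak. In 2 of 7 large families the interval lay below this share, the olfactory receptor genes with 10 of 1123 (0.890%, 95% CI 0.484 to 1.63) and the defensin genes with 0 of 63 (upper limit 5.75%). For the others the interval included it. Keratin genes had a peak at 0 of 38 (upper limit 9.18%) and Ugt genes at 1 of 19 (upper limit 24.6%). Serpin genes had one at 5 of 57 (8.77%, 95% CI 3.81 to 18.9), and cytochrome P450 genes of families Cyp2, Cyp3 and Cyp4 at 4 of 70 (95% CI 2.24 to 13.8), namely Cyp2j6, Cyp2j9, Cyp4f13 and Cyp4f16. In the Ly6 family 1 of 13 had a peak (95% CI 1.37 to 33.3), Ly6a, the stem cell antigen Sca-1.

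The share of CpG-poor TSSs with a peak varied between chromosomes. It was highest on chromosome 15 (15.0%, 95% CI 12.7 to 17.7) and lowest among autosomes on chromosome 14 (6.09%, 95% CI 4.79 to 7.72). Chromosome Y had 0 of 242. On chromosome X 10.2% of the promoter peaks were CpG-poor (95% CI 7.92 to 13.1), and on chromosome 12 this was 2.69% (95% CI 1.64 to 4.40). Leaving out chromosome 15 gave 1013 CpG-poor promoter peaks and 8.82% of CpG-poor TSSs with a peak.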
